A study of Mus musculus with 2 samples.

Results

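The 9 genes followed here mark venous or lymphatic endothelium, the cells lining veins and lymphatic vessels: Prox1, Nr2f2, Lyve1, Stab1, Mmrn1, Reln, Slc6a2, Prss23 and Bst1. They were chosen by name, with earlier results of these data known, and all 9 were present among the 22072 genes of the deposited tables. RNA came from dissected lungs of mice on the C57/BL6 background, with the RNA of several mice pooled for each of 2 genotypes. The knockout (KO) pool came from mice homozygous for floxed Foxf1 that also carried Pdgfb-iCreER, a drug-inducible Cre recombinase under endothelial Pdgfb control. The control pool came from mice with the same floxed alleles and no Cre, so an effect of the Cre transgene and one of Foxf1 loss cannot be told apart. Each pool gave 1 library, and no difference below has a replicate check or a test between genotypes. The labels record neither the number, sex and age of the mice nor the inducing treatment, and they do not say which part of Foxf1 is deleted.

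Veins and lymphatics share a developmental origin. In the mouse embryo the nuclear receptor NR2F2 (COUP-TFII) maintains venous identity, and with SOX18 it switches on PROX1 in a subset of venous cells, which then bud off and form lymphatic vessels. Mature lymphatic endothelium carries the hyaluronan receptor LYVE1 and the scavenger receptor STAB1 and releases multimerin 1 and reelin. Several of these genes are not restricted to those vessels: Lyve1 and Stab1 are also made by subsets of tissue macrophages, Lyve1 by some blood endothelium, Nr2f2 by mesenchyme, Bst1 by myeloid cells and Slc6a2 by sympathetic neurons. Whole-lung RNA does not show which cells a transcript came from, and fewer cells of a type cannot be told apart from less RNA per cell.

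Estimated from the deposited coverage, about 10.6 M reads lay on transcripts for the KO pool and about 13.4 M for the control pool. Lung-defining transcripts were abundant in both: Sftpc, of alveolar type 2 cells, stood at 13793 FPKM in the KO pool and 15925 FPKM in the control pool, where FPKM is a fragment count scaled to transcript length and library depth. Foxf1, listed as Foxf1a, had 15.7 FPKM in the KO pool and 72.1 FPKM in the control pool, a ratio of 0.218 (0.188 to 0.252), in a record that may or may not include the deleted part. Here and below, the range after a ratio is its 95% exact conditional interval from the estimated reads, and it covers counting error only. Pecam1, a gene of all endothelium, stood at 237 FPKM in the KO pool and 241 FPKM in the control pool. Not all such genes were level: of 30 listed, Emcn had the highest ratio, 5.11 (4.71 to 5.55), and Calcrl the lowest, 0.327 (0.318 to 0.336).

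The 9 genes did not share a direction. Lyve1, Slc6a2 and Prss23 were lower in the KO pool, by 5.90-fold, 3.65-fold and 1.79-fold. Stab1, Nr2f2 and Bst1 were modestly higher, by 1.35-fold, 1.24-fold and 1.48-fold, with counting intervals above 1. Mmrn1, Reln and Prox1 had intervals that span 1. Of the 9 genes, 7 had a mean of 1 FPKM or more over the pools, and of those 7, 3 were at least 1.5-fold lower and 0 at least 1.5-fold higher on the log2(FPKM + 1) scale. Among all 12929 genes over the same floor, 4.63% were at least 1.5-fold lower (599 genes) and 9.41% at least 1.5-fold higher (1217 genes). At 2-fold, 2 of the 7 were lower (Lyve1 and Slc6a2) and 0 higher, against 1.25% and 3.75% of all genes. Scaling the libraries to the same total without the 100 most abundant genes moved the 1.5-fold split to 791 lower and 988 higher, and scaling to pan-endothelial genes to 860 lower and 935 higher. The median log2 ratio of the 7 genes was -0.16, against 0.05 for all genes.

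**Figure D1:**
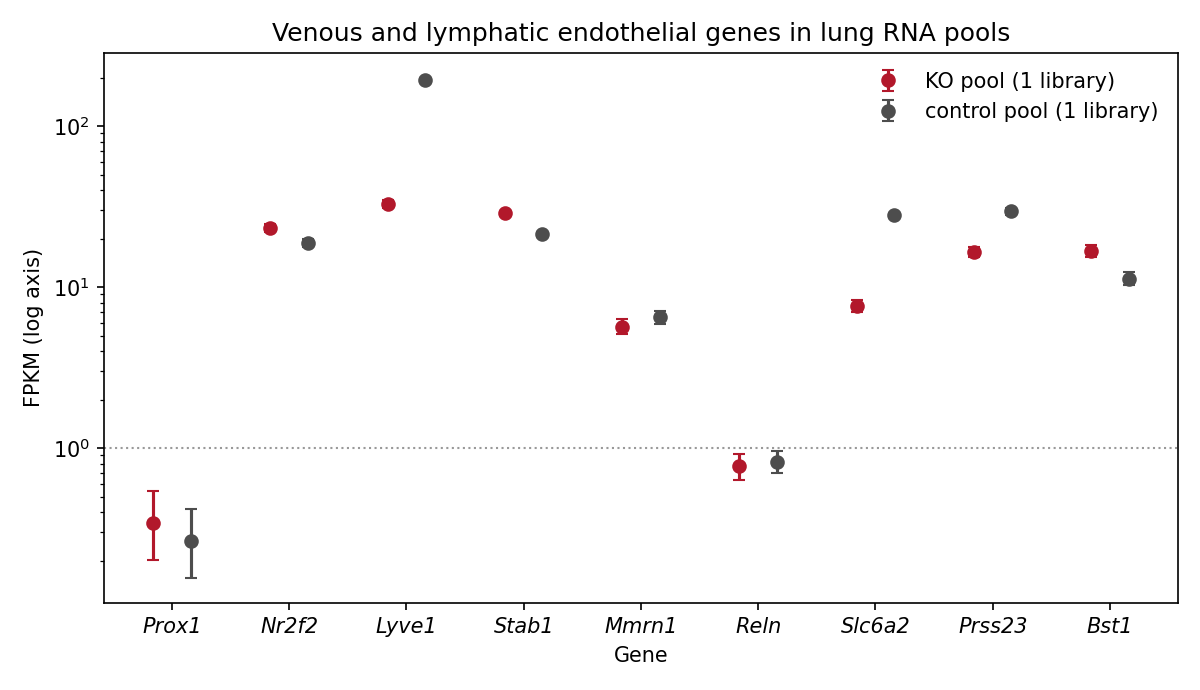
FPKM of the 9 genes (log axis) in the KO pool (red, left of each pair) and the control pool (grey, right), 1 library each, with bars for the 95% exact Poisson interval of counting and a dotted line at 1 FPKM. Lyve1 stands at 33.0 in the KO pool and 194 in the control pool, while Prox1 and Reln lie under 1 in both.

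Among the lymphatic genes, the transcription factor gene Prox1, the master regulator of lymphatic identity, was close to the limit of these libraries. It lies on chromosome 1 from 191945658 to 191994559 (mm9, as are all positions of the files). Its level was 0.341 FPKM in the KO pool and 0.265 FPKM in the control pool, from about 18 reads in each. The ratio of 1.28 had an interval of 0.631 to 2.62, so that a difference in either direction was not detectable at this depth. Prox1 was below the floor of 1 FPKM and enters no count of calls.

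Lyve1, whose product binds the matrix polysaccharide hyaluronan at the cell surface, was the most abundant of the 9 genes and differed the most. Its single transcript of 2607 bases lies on chromosome 7 from 117994121 to 118006467. It had 33.0 FPKM in the KO pool, from about 1116 reads, and 194 FPKM in the control pool, from about 8458 reads. The KO pool was 5.90-fold lower (5.54 to 6.28), with a log2 ratio of -2.52, which ranked 11 from the lowest among the 12929 genes. In the control pool 98.1% of the genes over the floor had a lower FPKM than Lyve1, and in the KO pool 84.4%. Lyve1 made up 24.8% of the summed FPKM of the 9 genes in the KO pool and 62.5% in the control pool. The sum of all 9 was 133 FPKM in the KO pool and 311 FPKM in the control pool, and without Lyve1 it was 99.8 FPKM in the KO pool and 117 FPKM in the control pool.

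Stab1 encodes stabilin 1, a large scavenger receptor, and went the other way from Lyve1. It lies on chromosome 14 from 31952203 to 31981827 and has a transcript of 7995 bases. Its level was 28.8 FPKM in the KO pool and 21.3 FPKM in the control pool, a ratio of 1.35 (1.28 to 1.42). The Lyve1 value was 1.15 times that of Stab1 in the KO pool and 9.11 times in the control pool, a comparison within each library that no scaling between libraries can change. The Stab1 locus overlaps Nt5dc2 in the deposited coordinates, at 33.2 FPKM in the KO pool and 35.2 FPKM in the control pool. No label says whether reads were counted by strand, so reads from a shared stretch may not be told apart.

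The secreted products of lymphatic endothelium differed little. Mmrn1 encodes multimerin 1, a large glycoprotein that binds coagulation factor V in platelets and endothelium. It is on chromosome 6 from 60894311 to 60939372. It had 5.68 FPKM in the KO pool and 6.49 FPKM in the control pool, a ratio of 0.876 (0.761 to 1.01). Its 2 listed transcripts are 4636 and 4633 bases long, and the shorter was assigned about 0 reads in the KO pool and 64 in the control pool. The longer transcript alone stood at 5.68 FPKM in the KO pool and 5.66 FPKM in the control pool, so the small difference of the gene came with the reads assigned to the shorter transcript. Reln encodes reelin, a secreted matrix protein best known from neuronal migration in the brain, and spans chromosome 5 from 21390272 to 21850523. It had 0.771 FPKM in the KO pool and 0.818 FPKM in the control pool, with a ratio of 0.942 (0.736 to 1.20), from about 117 reads in the KO pool and 160 in the control pool. Reln was below the floor of 1 FPKM as well.

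**Figure D2:**
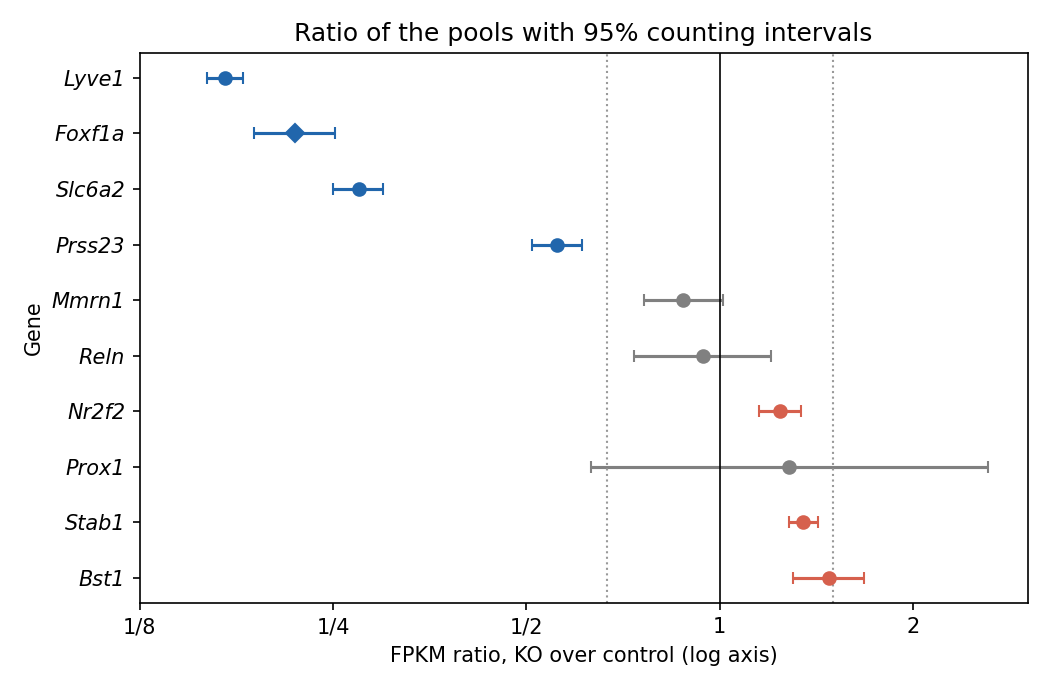
FPKM ratio of the KO pool over the control pool (log axis) for the 9 genes and the targeted gene Foxf1a (diamond), with 95% counting intervals: blue below 1, red above 1, grey spanning 1. Dotted lines mark 1.5-fold; Lyve1 at 0.170, Slc6a2 at 0.274 and Prss23 at 0.558 lie left of them, and Bst1 is the highest at 1.48.

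Among the venous genes, the regulator Nr2f2 was slightly higher in the KO pool. It is on chromosome 7, with 2 transcripts that share their lower coordinate at 77496836 and end at 77505479 and 77511632. The gene had 23.3 FPKM in the KO pool and 18.8 FPKM in the control pool, a ratio of 1.24 (1.15 to 1.34). The transcript ending at 77505479 had 16.7 FPKM in the KO pool and 12.6 FPKM in the control pool, a ratio of 1.32 (1.20 to 1.45). The transcript ending at 77511632 had 6.67 FPKM in the KO pool and 6.22 FPKM in the control pool, a ratio of 1.07 (0.930 to 1.24). The first supplied 71.4% of the gene's FPKM in the KO pool and 66.9% in the control pool.

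Slc6a2 encodes the noradrenaline transporter, which removes noradrenaline from blood passing through the lung. It was the second of the 9 in the size of its difference. Its transcript of 6073 bases lies on chromosome 8 from 95484946 to 95525566. It had 7.63 FPKM in the KO pool, from about 602 reads, and 27.9 FPKM in the control pool, from about 2827 reads. The ratio was 0.274 (0.250 to 0.299), or 3.65-fold lower in the KO pool, and the log2 ratio of -1.74 ranked 44 from the lowest of 12929. Set against Nr2f2 in the same library, the Slc6a2 value was 0.327 times as high in the KO pool and 1.48 times as high in the control pool.

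Prss23, which encodes a secreted serine protease, was lower by a smaller amount. Its transcript of 3226 bases is on chromosome 7 from 96656295 to 96666096. It had 16.5 FPKM in the KO pool and 29.5 FPKM in the control pool, 1.79-fold lower in the KO pool (1.64 to 1.96), with a log2 ratio of -0.80 that ranked 282 from the lowest. Bst1 encodes CD157, a cell-surface enzyme that cleaves NAD and marks endothelial cells of large vessels in mice. It lies on chromosome 5 from 44210132 to 44234707. Bst1 was the highest of the 9 by ratio, at 16.7 FPKM in the KO pool and 11.3 FPKM in the control pool, a ratio of 1.48 (1.30 to 1.68). Its log2 ratio of 0.52 lay just under the 1.5-fold threshold.

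Promoter sequence was matched by symbol to RefSeq (GRCm38.p6) for 6 of the 9 genes, Prox1, Mmrn1, Reln, Stab1, Nr2f2 and Prss23. Lyve1, Slc6a2 and Bst1 are named only. The 250 bases before the start are shown for Prss23, the one gene of the lower group with an entry, and for Stab1, the most abundant of the higher group, both on the reverse strand. Capitals mark CpG dinucleotides, which are dense in one and sparse in the other. The Prss23 sequence spans chr7:89517587-89517836 and the Stab1 sequence chr14:31168642-31168891.
Prss23: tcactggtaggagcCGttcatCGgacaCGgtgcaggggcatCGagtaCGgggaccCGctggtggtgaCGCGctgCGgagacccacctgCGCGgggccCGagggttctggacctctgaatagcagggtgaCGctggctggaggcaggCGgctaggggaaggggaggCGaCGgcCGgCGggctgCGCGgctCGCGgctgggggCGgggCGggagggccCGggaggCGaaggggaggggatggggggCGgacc
Stab1: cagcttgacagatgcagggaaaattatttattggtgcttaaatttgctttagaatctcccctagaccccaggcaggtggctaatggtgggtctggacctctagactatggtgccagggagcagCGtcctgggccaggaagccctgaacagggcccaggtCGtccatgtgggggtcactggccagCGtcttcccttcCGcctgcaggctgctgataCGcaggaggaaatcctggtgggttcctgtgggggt
The Prss23 stretch holds 27 CpG dinucleotides and is 74.4% G or C, and the Stab1 stretch holds 5 and is 57.2% G or C. Over all 32851 promoter entries the medians are 6 CpG dinucleotides and 52.4% G or C. Of the other genes, Nr2f2 had 1 CpG dinucleotide, Mmrn1 3, Prox1 20 and Reln 37. The only Nr2f2 entry lies at the start of the transcript ending at 77511632. That transcript supplied 28.6% of the gene's FPKM in the KO pool and 33.1% in the control pool. The start of the more abundant Nr2f2 transcript was not examined. Of the 6, Prss23 alone was called at 1.5-fold, and Prox1 and Reln were under the floor, so CpG density cannot be set against the calls. The forkhead core TAAACA, searched on both strands with overlaps allowed, was found in none of the 6 stretches nearest the listed transcripts, against 3952 of all 32851 promoter entries over the same 250 bases. Over 300 bases that include the first 50 of the transcript, 1 of 13 entries for these genes held it, an alternative start of Prox1, against 13.4% of all entries. Counted by gene over the 300 bases, 1 of 6 held it, or 16.7%, against 15.1% of all genes with an entry. These counts say only whether these letters are in these windows.

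The order of the levels changed between the pools. In the KO pool Lyve1 was followed by Stab1 at 28.8 FPKM (27.7 to 29.8), Nr2f2 at 23.3 FPKM (22.1 to 24.7), Bst1 at 16.7 FPKM (15.3 to 18.3), Prss23 at 16.5 FPKM (15.3 to 17.8), Slc6a2 at 7.63 FPKM (7.04 to 8.27) and Mmrn1 at 5.68 FPKM (5.10 to 6.32). In the control pool Lyve1 was followed by Prss23 at 29.5 FPKM (28.1 to 31.0), Slc6a2 at 27.9 FPKM (26.9 to 28.9), Stab1 at 21.3 FPKM (20.6 to 22.1), Nr2f2 at 18.8 FPKM (17.8 to 19.9), Bst1 at 11.3 FPKM (10.3 to 12.4) and Mmrn1 at 6.49 FPKM (5.93 to 7.08). Reln and Prox1 came last in both. The ranges are 95% exact Poisson intervals of counting, and FPKM is scaled per length, so levels of different genes can be set side by side. Bst1 and Prss23 in the KO pool, and Prss23 and Slc6a2 in the control pool, were the neighbours whose intervals overlap.

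Set against other endothelial genes of the same library, the same 3 genes were lower in the KO pool. Relative to Pecam1, Lyve1 stood at 13.9% in the KO pool and 80.7% in the control pool, Slc6a2 at 3.22% in the KO pool and 11.6% in the control pool, and Prss23 at 6.96% in the KO pool and 12.3% in the control pool. Relative to Cdh5, which encodes VE-cadherin, Lyve1 stood at 17.4% in the KO pool and 90.9% in the control pool. Against the geometric mean of 30 pan-endothelial genes, the KO over control ratio was 0.157 for Lyve1, 0.253 for Slc6a2 and 0.516 for Prss23. On the same footing it was 1.36 for Bst1, 1.25 for Stab1 and 1.15 for Nr2f2. The choice of gene mattered for these 3: against Cdh5 the ratio was 1.67 for Bst1, 1.52 for Stab1 and 1.40 for Nr2f2. Against Pecam1 it was 1.37 for Stab1 and 1.26 for Nr2f2, and Bst1 stood at 7.06% of Pecam1 in the KO pool and 4.71% in the control pool. Against Cdh5 the ratio was 0.192 for Lyve1, 0.309 for Slc6a2 and 0.631 for Prss23.

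**Figure D3:**
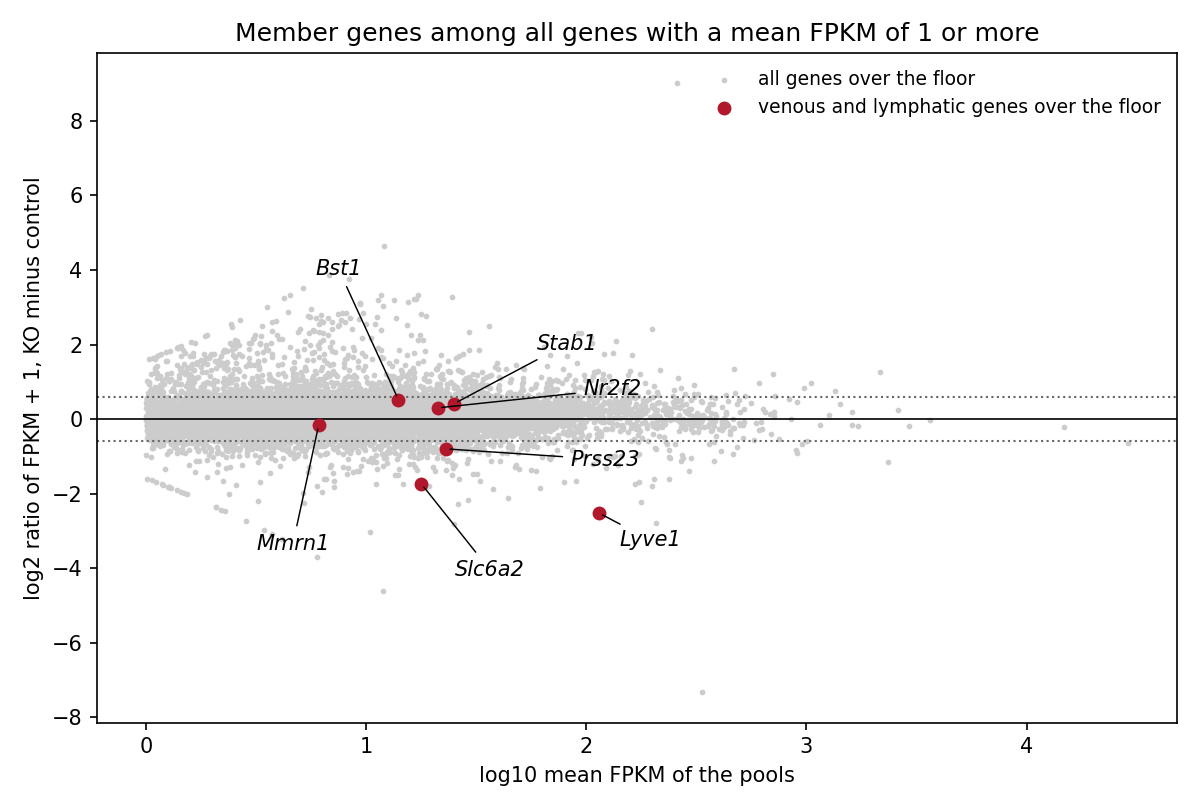
Log2 ratio of FPKM + 1 (KO minus control) against log10 mean FPKM for all 12929 genes with a mean of 1 FPKM or more (grey), with the 7 venous and lymphatic genes over that floor in red and dotted lines at 1.5-fold. Lyve1 at -2.52, Slc6a2 at -1.74 and Prss23 at -0.80 lie below the lower line, and the other 4 lie between the lines.

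Other markers of the same vessels were mixed in direction, with most within 1.5-fold. Of 27 further lymphatic genes in the tables, 22 passed the floor, of which 6 were at least 1.5-fold higher in the KO pool and 3 lower, with a median log2 ratio of 0.12. The highest was Emilin1, a matrix gene needed for lymphatic anchoring in mice, at 44.4 FPKM in the KO pool and 19.2 FPKM in the control pool. The lowest was the scavenging chemokine receptor gene Ackr4, listed as Ccrl1, at 0.449 FPKM in the KO pool and 2.87 FPKM in the control pool. The most abundant were Sox18, the partner of NR2F2 in switching on Prox1, with a ratio of 1.69 (1.60 to 1.79), and Pdpn, which encodes podoplanin and is also made by alveolar type 1 cells, with a ratio of 1.28 (1.21 to 1.36).

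Of 18 further venous genes in the tables, 16 passed the floor, of which 5 were at least 1.5-fold higher in the KO pool and 2 lower, with a median log2 ratio of 0.43. The vessel lists share some genes, so their counts are not independent. Nrp2 counts as higher in both the lymphatic and the venous list, and Aplnr in both the venous and the general capillary list. Lrg1, a glycoprotein gene of venules and inflamed vessels, was the highest, at 158 FPKM in the KO pool and 31.0 FPKM in the control pool. Smad6, an inhibitor of BMP signalling, was the lowest, at 41.7 FPKM in the KO pool and 68.3 FPKM in the control pool. The transporter gene Slc43a3 was the most abundant, at 180 FPKM in the KO pool and 189 FPKM in the control pool. Markers of lung capillaries had medians of -0.58 over 17 general capillary genes and -0.64 over 16 aerocyte genes, with 8 general capillary genes at least 1.5-fold lower and 3 higher, and 9 aerocyte genes lower and 1 higher. Arterial genes had a median of 0.35 over 18 genes, with 7 at least 1.5-fold higher and 2 lower. The 30 pan-endothelial genes had a median of 0.07, which was -0.02 and -0.04 under 2 other scalings, with 7 higher and 5 lower.

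**Figure D4:**
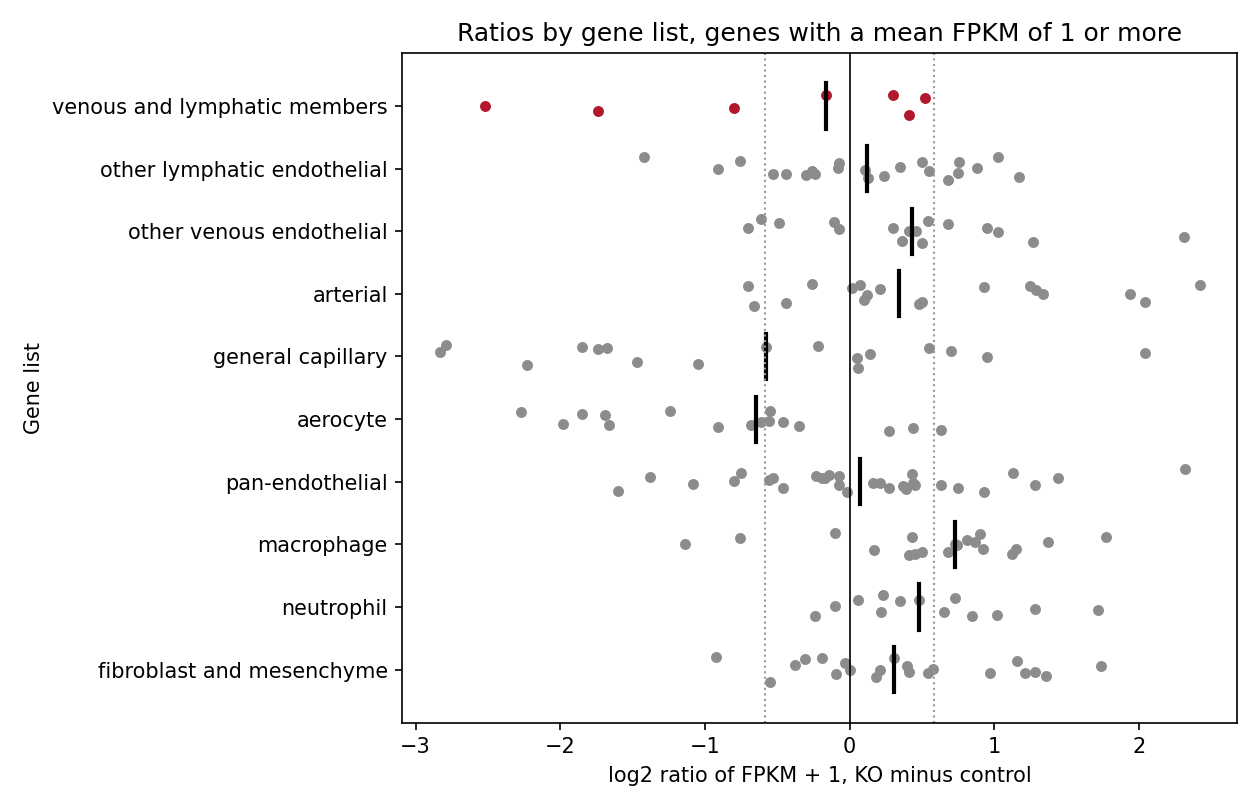
Log2 ratio of FPKM + 1 (KO minus control) of each gene over the floor, by gene list, with black bars at the list medians, a solid line at 0 and dotted lines at 1.5-fold. The 7 venous and lymphatic genes (red) run from -2.52 to 0.52; the general capillary and aerocyte lists have the lowest medians, at -0.58 and -0.64.

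Genes of other cells that make some of these transcripts were read beside them. Of 24 macrophage genes, 19 passed the floor, of which 11 were at least 1.5-fold higher in the KO pool and 2 lower, with a median of 0.73. Marco, an alveolar macrophage receptor gene, was the highest, at 15.4 FPKM in the KO pool and 3.81 FPKM in the control pool. Siglec5 went the other way, at 2.76 FPKM in the KO pool and 5.35 FPKM in the control pool, a ratio of 0.516 (0.398 to 0.664). The summed level of all 24 was lower in the KO pool, at 1814 FPKM in the KO pool and 3435 FPKM in the control pool. Most of that sum was Cbr2, which club cells express strongly, and leaving it out turned the direction, to 353 FPKM in the KO pool and 205 FPKM in the control pool. Clec4f was listed at 0 in both. Stab1 was higher along with most macrophage genes over the floor and Lyve1 was not, and the part of macrophages in either value was not tested. Of 17 neutrophil genes, 13 passed the floor, with 6 at least 1.5-fold higher, 0 lower and a median of 0.48, beside Bst1. The sum of all 17 was 365 FPKM in the KO pool and 156 FPKM in the control pool, and without Lcn2, which epithelium also makes, it was 116 FPKM in the KO pool and 81.3 FPKM in the control pool. Elane, below the floor, had 0.254 FPKM in the KO pool, from about 3 reads, and was listed at 0 in the control pool. The part of neutrophils in the Bst1 value was not tested.

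Of 22 fibroblast and mesenchymal genes, 21 passed the floor, with 6 at least 1.5-fold higher, 1 lower and a median of 0.31, and their summed level was 3777 FPKM in the KO pool and 2918 FPKM in the control pool. Fn1, the fibronectin gene, was the highest of them and Inmt, a methyltransferase gene, the lowest. Their part in the Nr2f2 and Prss23 values was not tested. Beside Slc6a2, sympathetic neuron and glial genes were mixed. Th and Dbh, which encode enzymes of noradrenaline synthesis, were listed at 0 in both pools. Both were picked out after their values were seen, and a value of 0 in whole lung does not measure its nerve supply. The neuronal gene Stmn2 stood at 23.7 FPKM in the KO pool and 29.1 FPKM in the control pool, Uchl1 at 5.39 FPKM in the KO pool and 4.12 FPKM in the control pool, and Tubb3 had a ratio of 7.17 (3.83 to 14.6). Of that list of 18 neuronal and glial genes, 4 passed the floor, with 1 at least 1.5-fold higher, 0 lower, a median of 0.10 and a summed list level of 36.9 FPKM in the KO pool and 39.3 FPKM in the control pool, and the part of neurons in the Slc6a2 value was not tested. Mesothelial genes had a median of 0.44, with 3 of 10 at least 1.5-fold higher and 0 lower. Cardiac muscle, which sheathes the mouse pulmonary veins, had 6 of 18 marker genes over the floor, with 3 at least 1.5-fold higher, 1 lower and a median of 0.43. The summed level of all 18 was 38.7 FPKM in the KO pool and 26.7 FPKM in the control pool. Most of that sum was Actc1, at 26.1 FPKM in the KO pool and 15.9 FPKM in the control pool. Myh7, the lowest by ratio of those over the floor, had 1.22 FPKM in the KO pool and 3.01 FPKM in the control pool.

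The pathways around the members were read from lists chosen by function. In the hyaluronan list, 11 of 20 genes passed the floor, with 4 at least 1.5-fold higher and 2 lower. Lyve1 was its lowest and most abundant gene, and Hmmr, a hyaluronan-binding protein gene also active in mitosis, was the highest, at 8.83 FPKM in the KO pool and 0.945 FPKM in the control pool. Hyal2, a hyaluronan-cleaving enzyme gene, was level at 46.3 FPKM in the KO pool and 46.5 FPKM in the control pool. In the noradrenaline and monoamine list, 10 of 19 genes passed the floor, with 3 at least 1.5-fold lower and 0 higher and a median of -0.55, or -0.53 over the 9 genes other than Slc6a2. The extraneuronal transporter gene Slc22a3, the highest of the list, had 2.20 FPKM in the KO pool and 1.26 FPKM in the control pool.

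The reelin list was flat, with 10 of 13 genes over the floor, none at least 1.5-fold higher or lower and a median of 0.11. The reelin receptor gene Vldlr was its lowest, at 4.89 FPKM in the KO pool and 7.03 FPKM in the control pool, and the exchange factor gene Rapgef1 its highest, with a ratio of 1.43 (1.34 to 1.52). Of the multimerin relatives over the floor, Mmrn2, an endothelial matrix gene, had a ratio of 2.53 (2.33 to 2.74), Emilin1 one of 2.31 (2.15 to 2.49) and Emilin2 one of 1.40 (1.06 to 1.86), the last within 1.5-fold. Of the relatives of Prox1 and Nr2f2, Nr2f1 had 3.67 FPKM in the KO pool and 2.75 FPKM in the control pool, Nr2f6 had 23.8 FPKM in both, and Prox2 had 1.13 FPKM in the KO pool and 1.01 FPKM in the control pool. The list that holds these relatives also holds Nr2f2 itself and genes of other families, such as Sox18. Of its 9 genes over the floor, 1 was at least 1.5-fold higher, Sox18, and 0 lower, with a median of 0.10. In the NAD list, 2 of 9 genes over the floor were at least 1.5-fold higher and 0 lower, with a median of 0.15. Art3, an ADP-ribosyltransferase family gene, was its highest, at 15.1 FPKM in the KO pool and 8.24 FPKM in the control pool, and Nampt, which encodes the enzyme of NAD salvage, its lowest, at 15.4 FPKM in the KO pool and 20.4 FPKM in the control pool.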

How the data were processed

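Whole-lung RNA was sequenced as 1 pooled library per genotype. The authors deposited FPKM values for 28107 RefSeq transcripts per library. Per the file headers, a coverage signal (mean depth per transcript base) and a transcript length stand beside each value. The submitters' processing notes name the build mm9 and the tool DESeq; the role of DESeq, the aligner and the quantification tool were not given in the sources used here. FPKM was summed over the transcripts of each symbol. Log2 ratios were taken as KO minus control after adding a pseudocount of 1 to FPKM, which understates differences of low genes; ratios printed alone are plain FPKM ratios. Genes with a mean of 1 FPKM or more were counted at 1.5-fold. Reads were estimated as coverage times length over 46.8 bases (KO) and 46.9 bases (control), the most frequent product of coverage and length between 30 and 70 among single-record genes over 1000 bases, taken as 1 read, and intervals are exact (Clopper-Pearson for ratios, Poisson for levels). They cover counting error only: differences between mice, pools and preparations are not in them. The calculation was checked on simulated data that held counting error only, so the check does not cover those differences either. Python 3.11.15, pandas 2.3.3 and SciPy 1.17.1 were used.

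The 9 genes and the 18 other lists were chosen with earlier results of these data known. The text names all 9 and Foxf1. Most other genes are the highest, lowest and 2 most abundant over the floor in each list and, in short lists, direct partners. Sftpc, Pecam1, Cdh5, Clec4f, Elane, Th, Dbh and the overlapping Nt5dc2 were named after their values were seen. So were Siglec5, Nrp2, Aplnr, Flt4, Cd38, Foxc2, Ccl21a, Ackr1 and Stab2. Of the listed genes, 5 (Piezo1, Tmem252, Ly6g, Muc16 and Art2a) were not analysed here, and a few list genes are not reported here by name. Pseudocount, floor, fold, scaling and transcript choice were varied.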

Additional observations from a re-analysis of the deposited data

How the results depend on the processing

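Lyve1, Slc6a2 and Prss23 were the members called lower under each of 11 alternatives that kept the 1.5-fold threshold, and none was called higher; with a threshold of 2-fold the members called lower were Lyve1 and Slc6a2. The log2 ratio ran from -2.64 to -2.46 for Lyve1, from -1.86 to -1.54 for Slc6a2, from -0.91 to -0.74 for Prss23, from 0.30 to 0.43 for Stab1, from 0.19 to 0.38 for Nr2f2, from 0.42 to 0.56 for Bst1, from -0.09 to -0.02 for Reln and from 0.03 to 0.27 for Prox1. Mmrn1 ran from -0.26 to 0.01 and turned positive with the most abundant transcript alone; the median of the members moved with it. Over all genes, a pseudocount of 3 left 371 lower, a floor of 5 left 745 higher and 392 lower, and a threshold of 2-fold left 485 higher and 162 lower. The pan-endothelial scaling was chosen after seeing the data. No paired analysis was possible because each genotype has 1 library, and for the same reason no library could be left out. Depth limits Prox1 most, with about 18 reads in each pool.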

Other observations

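Several textbook markers of lymphatic and venous vessels were near or at 0 in these whole-lung libraries; all were picked out after their values were seen. Ccl21a, the lymphatic chemokine gene, was listed at 0 in both pools, which is uncertain because near-identical Ccl21 genes stand beside it in the tables. Foxc2, a regulator of lymphatic valves, had 0.138 FPKM in the KO pool and 0.243 FPKM in the control pool, a ratio of 0.570 (0.159 to 1.82). Ackr1, a venule gene listed as Darc, had 0.302 FPKM in the KO pool and was listed at 0 in the control pool. Stab2, which encodes the relative of stabilin 1 found on liver sinusoids, had 0.882 FPKM in the KO pool, from about 93 reads, and 0.211 FPKM in the control pool, from about 29 reads, a ratio of 4.18 (2.73 to 6.58). The lymphatic receptor gene Flt4, which encodes VEGFR3, was well above the floor, at 16.6 FPKM in the KO pool and 11.0 FPKM in the control pool. The Flt4 ratio of 1.51 (1.39 to 1.64) went the other way from that of Lyve1. On the log2(FPKM + 1) scale it was 0.55, just under the 1.5-fold threshold, so Flt4 was not counted as higher. Which cells the Flt4 transcript came from was not tested. Cd38, the other NAD-cleaving ectoenzyme gene beside Bst1, had a ratio of 1.32 (1.19 to 1.47), near that of Bst1 itself.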
